A study of Mus musculus with 8 samples.

Results

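The interleukin-6 (IL-6) family and STAT3 signalling genes followed here are Lif, Il6ra, Il6st, Lifr, Osmr, Jak1, Jak2, Stat3, Socs3 and Cebpd, 10 of the 21755 protein-coding genes annotated on the mouse autosomes and X chromosome. They were taken by name, as a ligand, receptor chains, kinases, a transcription factor, its inhibitor and a target of 1 pathway. These genes and the other gene lists used below were chosen with earlier results of these data known. The study asked how enhancers encode the gene programs that injury induces in the spinal cord. It profiled the transcription factor SOX9 by CUT&Tag, to look for its binding at injury-responsive enhancers of reactive astrocytes. In this method an antibody directs a transposase to the chromatin its target occupies, and the released DNA fragments are sequenced. Nuclei came from adult mice with the genotype label WT, from a short segment of spinal cord around a contusion injury at 1 day postinjury (d.p.i.) or from the same level of uninjured cords. Each condition had 1 male and 1 female sample, and part of each sample's nuclei received the secondary antibody alone, which gave 4 SOX9 libraries and 4 control libraries. The sample records name a DNA dye for the sorting of nuclei and no antibody, while the methods of the study refer back to a sort that also describes antibodies to NEUN and SOX10, so the libraries are read as a mixture of cell types whose gate is not certain. The same methods describe animals pooled within a condition without saying how many stand behind each of these samples. In bulk material, fewer cells of a type and less SOX9 signal per cell cannot be told apart.

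Cytokines of the IL-6 family signal through receptor complexes that contain the shared chain gp130, the product of Il6st, whose associated Janus kinases phosphorylate STAT3. Phosphorylated STAT3 enters the nucleus and switches on genes that include its own inhibitor Socs3 and the transcription factor Cebpd. In the injured spinal cord the pathway is known for its part in astrocyte reactivity and scar formation, and SOX9 is a transcription factor of astrocytes and other glia.

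The SOX9 libraries held 1869806 (uninjured male), 7209462 (uninjured female), 2513522 (1 d.p.i. male) and 2381412 (1 d.p.i. female) fragments on the autosomes and X chromosome, whereas the 4 control libraries held between 10892 and 52684. Libraries also shared fragments. Of the control fragments that overlapped no other fragment of their library, between 25.8% and 35.1% had the same start and end as such a fragment in a SOX9 library, and after a shift of 100 bases the number was 0 in each control. Among the SOX9 libraries, at most 1.68% of these lone fragments recurred in another SOX9 library. Removing them, an alternative chosen after seeing the data, left the number of genes called below as it was, at 6.

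Coverage was read in 3 windows for every gene: the promoter (1 kb to each side of the annotated start), the gene body, and the flanks (20 kb to each side of the gene, without the gene itself, so that the flanks and the promoter share the kilobase before the start). In the same way the promoter and the gene body share the kilobase after the start. A level is the mean coverage per base in the window as a multiple of the library's mean over the autosomes, so levels are per length and can be compared between genes. In a promoter, 1 whole fragment of mean length was worth a level of 0.675 in the uninjured male library, 0.174 in the uninjured female library, 0.5 in the 1 d.p.i. male library and 0.531 in the 1 d.p.i. female library. Fragment counts below are of all fragments that reach into the window. The p-values below measure only the spread between these samples.

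At 1 d.p.i. SOX9 coverage rose in the flanks of Cebpd, the only 1 of the 10 genes to pass the test in any window. Cebpd, Socs3 and Il6ra had both 1 d.p.i. libraries above both uninjured libraries in all 3 windows, although by very different amounts. Stat3 had the most SOX9 coverage of the 10 at its promoter, and there the libraries of the 2 conditions overlapped. Each of the remaining genes overlapped between the conditions in at least 1 window.

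In the test across all coding genes (limma on log2 of the level + 0.5, adjusted over all genes tested, threshold 0.05), 1 of the 10 genes was called higher in the flanks, where 6 of 21754 genes (0.0276%) were called higher and 0 (0%) lower. Without the 1 d.p.i. male library or without the 1 d.p.i. female library the flank count was 0, and without the uninjured male or the uninjured female library it was 25 (18 of them higher) and 19 (14 of them higher), so genes called lower appeared as well. It was 0 with a trimmed mean of log ratios as scaling, 3 when the highest tiles were left out of the library mean, 2 after thinning all libraries to equal numbers of fragments and 1 without a mean-variance trend. In promoters limma called 0 of 21238 genes higher (0%) and 0 lower (0%), and at an unadjusted p under 0.05 there were 248 higher (1.17%) and 283 lower (1.33%), of which 1 of the 10 genes (Socs3) was higher and 0 were lower. In gene bodies limma called 0 of 21570 genes higher (0%) and 0 lower (0%), and at an unadjusted p under 0.05 there were 460 higher (2.1%) and 371 lower (1.72%), of which 2 of the 10 (Socs3 and Cebpd) were higher and 0 lower. In the flanks 322 genes (1.48%) were higher and 167 (0.768%) lower at an unadjusted p under 0.05, and 2 of the 10 (Cebpd and Jak2) were among the higher and 0 among the lower. With 2 libraries against 2, an exact two-sided permutation test of a single gene cannot go below p = 0.333, so it cannot pass 0.05 and the calls rest on the spread that limma pools over genes.

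Counted without a test, both 1 d.p.i. libraries lay above both uninjured libraries at 3 of the 10 promoters (8.69% of all promoters) and below them at 1 (14.6% of all), at 6 gene bodies (13.7% of all) and 0 (15.4% of all), and in the flanks of 4 genes (12.5% of all) and 0 (13.2% of all). In all 3 windows at once, 3 of the 10 genes were above (0.899% of 21137 genes) and 0 were below (0.989%). The windows of a gene share bases, so the 3 are not independent. This weighs most in short genes such as Socs3 and Cebpd, which are 3969 and 3746 bases long. With the trimmed mean of log ratios as scaling, 2 of the 10 gene bodies lay above, and the share of all 21755 gene bodies went from 13.6% to 9.77%. The median log2 difference of the 10 genes was 0.31 at promoters against -0.06 over all genes, 0.14 in gene bodies against -0.02, and 0.09 in the flanks against -0.02. These medians moved with single libraries, and at promoters those of all genes moved the same way. The promoter median was 0.72 without the uninjured female library (0.26 over all genes), 0.07 without the uninjured male library (-0.40), 0.15 without the 1 d.p.i. male library (-0.15) and 0.48 without the 1 d.p.i. female library (0.00). The flank median was 0.23 without the uninjured male library (-0.05 over all genes), 0.04 without the uninjured female library (0.02), 0.18 without the 1 d.p.i. male library (-0.03) and 0.17 without the 1 d.p.i. female library (-0.02).

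**Figure D1:**
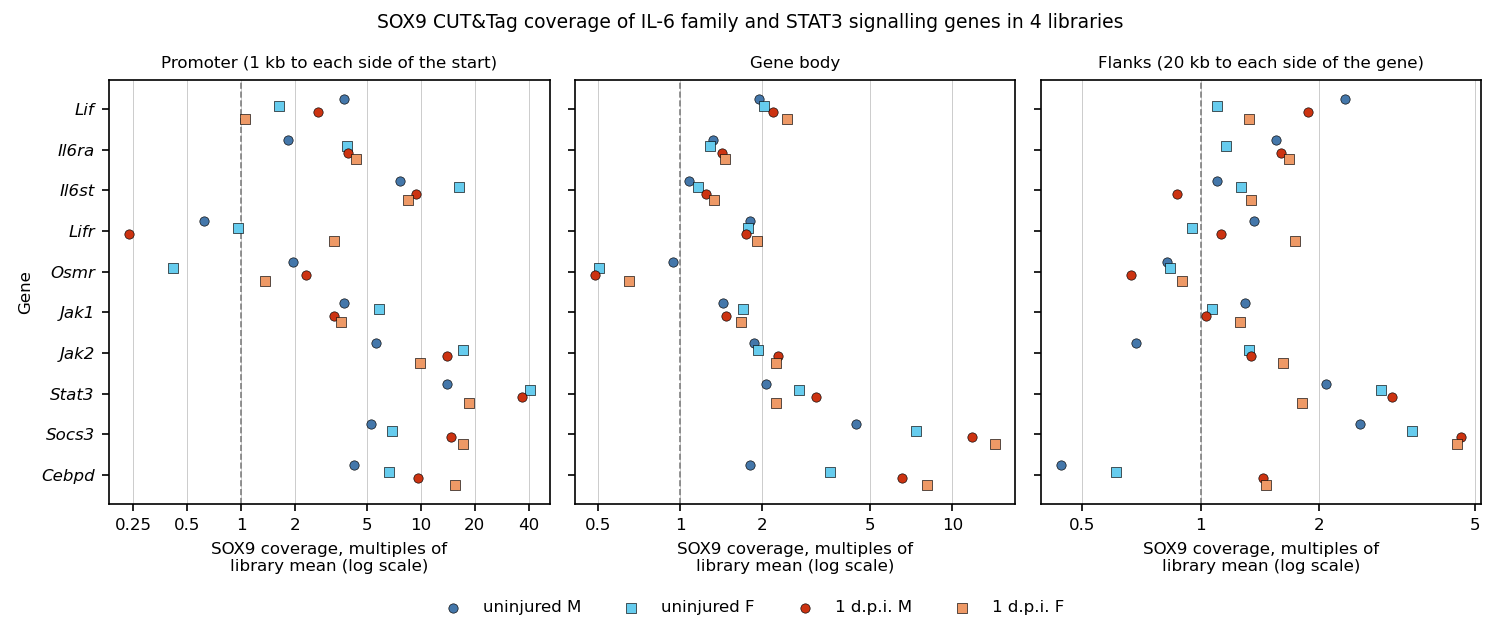
SOX9 coverage of the 10 genes in the promoter, gene body and flanks, as multiples of the library mean on a log axis; each point is 1 library, circles male and squares female, blue uninjured and red or orange 1 d.p.i., and the dashed line is the library mean. The 1 d.p.i. points of Socs3 and Cebpd lie to the right of the uninjured points in all 3 panels, with Cebpd flank levels of 1.44 and 1.47 against 0.441 and 0.609.

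Lif encodes leukaemia inhibitory factor, the 1 ligand of the list. Its promoter level was 3.74 (uninjured male), 1.63 (uninjured female), 2.69 (1 d.p.i. male) and 1.05 (1 d.p.i. female), so both male libraries lay above both female libraries and the conditions overlapped. These levels rested on 7, 10, 4 and 2 fragments. In the gene body the level was 1.95 and 2.04 in the uninjured libraries and 2.2 and 2.48 at 1 d.p.i., which did not overlap but differed by a log2 of 0.18 (SE 0.18, adjusted p = 1.00). The flanks lay between 1.10 and 2.33 in the 4 libraries and overlapped. The nearest coding gene to Lif is Osm, which encodes the related ligand oncostatin M and starts 21.1 kb away.

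Il6ra encodes the receptor chain that binds IL-6. At its promoter the levels were 1.82 (uninjured male), 3.91 (uninjured female), 3.93 (1 d.p.i. male) and 4.37 (1 d.p.i. female). The uninjured female library lay just below the lower 1 d.p.i. library, so the separation is slight. The log2 difference was 0.54 (SE 0.74, adjusted p = 1.00). Its gene body held 1.32 and 1.29 in the uninjured libraries and 1.43 and 1.46 at 1 d.p.i., a narrow gap. In the flanks the levels were 1.56 and 1.16 against 1.60 and 1.68, and only the side after the gene was separated, with 1.73 and 1.13 in the uninjured libraries and 1.86 and 2.7 at 1 d.p.i. The side before the gene overlapped between conditions. After thinning to equal numbers of fragments, or with the trimmed mean of log ratios as scaling, Il6ra was no longer apart in all 3 windows. An antisense transcript, Gm42809, starts 0.3 kb from the Il6ra start, inside the same promoter window.

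Il6st encodes gp130, the chain that all receptors of the family share. Its promoter was among the more covered of the 10, at 7.65 (uninjured male), 16.3 (uninjured female), 9.37 (1 d.p.i. male) and 8.56 (1 d.p.i. female). The uninjured female library stood above the other 3, and the conditions overlapped. The most covered tile of the locus, chr13:112463001-112464000 just before the Il6st start, held 10.4 and 17.2 in the uninjured libraries and 7.76 and 10.0 at 1 d.p.i., so there both 1 d.p.i. libraries lay below both uninjured ones (log2 -0.58, SE 0.61). In the gene body the uninjured libraries held 1.08 and 1.16 and the 1 d.p.i. libraries 1.24 and 1.33, a log2 difference of 0.14 (SE 0.16, adjusted p = 1.00). Its flanks lay between 0.870 and 1.34 and overlapped.

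Lifr encodes a signalling chain that leukaemia inhibitory factor and several other ligands of the family use, and Osmr a chain of the oncostatin M receptor. The annotated start of Lifr had little coverage, with levels of 0.624 (uninjured male), 0.956 (uninjured female), 0.238 (1 d.p.i. male) and 3.28 (1 d.p.i. female) from 1, 6, 2 and 7 fragments, and the 1 d.p.i. libraries lay on both sides of the uninjured ones. A second start of Lifr carried more: the most covered 1-kb tile of the locus, chr15:7129001-7130000, held levels of 8.85, 19.5, 5.03 and 9.48 in the same order of libraries. Its most covered base was 38.9 kb inside the gene and 95 bases before the start of a coding transcript of Lifr (-95), and there too the conditions overlapped. The Osmr promoter had levels of 1.94, 0.415, 2.31 and 1.35 from 2, 3, 4 and 4 fragments, and its gene body, between 0.487 and 0.943, was below the library mean in all 4 libraries. Of all 10 genes Osmr had the lowest mean level in the gene body, at the 24.4th percentile of all coding genes.

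Jak1 and Jak2 encode kinases that sit on the receptor chains. The Jak1 promoter held 3.75 (uninjured male), 5.86 (uninjured female), 3.27 (1 d.p.i. male) and 3.61 (1 d.p.i. female), and both 1 d.p.i. libraries lay below both uninjured ones, the nearest pair by little. The log2 difference was -0.40 (SE 0.71, adjusted p = 1.00), and after thinning to equal numbers of fragments or with 2 kb to each side of the start, 0 of the 10 promoters lay below. The Jak1 gene body differed by a log2 of 0.00 (SE 0.18), with levels between 1.44 and 1.70. At the Jak2 promoter the levels were 5.65, 17.2, 14.1 and 9.91 in the same order, and the lowest and the highest library were both uninjured. The Jak2 gene body was separated, at 1.87 and 1.94 in the uninjured libraries and 2.29 and 2.25 at 1 d.p.i. (log2 0.20, SE 0.18, adjusted p = 1.00). Its flanks were too, at 0.684 and 1.33 against 1.34 and 1.62 (log2 0.43, SE 0.20, adjusted p = 1.00), with the uninjured female and the 1 d.p.i. male library almost level. The flank log2 difference of Jak2 was 0.11 without the uninjured male library and 0.74 without the uninjured female library. Without the 1 d.p.i. male or female library it was 0.53 or 0.32.

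Stat3 encodes the transcription factor that the receptors activate, and its promoter level was at the 98.0th percentile of all coding genes. The levels were 14.0 (uninjured male), 40.6 (uninjured female), 36.6 (1 d.p.i. male) and 18.5 (1 d.p.i. female), from 29, 239, 84 and 40 fragments. The high libraries were 1 of each condition and 1 of each sex, and the means of the conditions, 27.3 uninjured and 27.6 at 1 d.p.i., were within the spread between libraries (log2 0.12, SE 0.72, adjusted p = 1.00). The same 2 libraries had the highest median promoter level over all coding genes, 4.35 (uninjured female) and 3.38 (1 d.p.i. male) against 2.64 (uninjured male) and 3.05 (1 d.p.i. female), and its part in the Stat3 values was not tested. The most covered tile of the locus, chr11:100939001-100940000, lay over the Stat3 start and held 22.6, 73.4, 65.4 and 33.1, and 0.0188% of all 1-kb tiles had a higher mean. In the gene body Stat3 held between 2.06 and 3.16 and in the flanks between 1.81 and 3.07, and both overlapped.

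Socs3 encodes the inhibitor that STAT3 induces and that shuts the receptor complex off. Its promoter level was 5.31 (uninjured male) and 6.95 (uninjured female) in the uninjured libraries, and 14.8 (1 d.p.i. male) and 17.3 (1 d.p.i. female) after injury. Both 1 d.p.i. libraries were above both uninjured ones, and the gap between the conditions was wider than the gap within either. The log2 difference of 1.33 (SE 0.62) had an adjusted p of 1.00 and so did not pass. The gene body held 4.41 and 7.37 uninjured and 11.8 and 14.4 at 1 d.p.i., a log2 difference of 1.12 (SE 0.38, adjusted p = 1.00), and the level of this window was at the 97.4th percentile. In the flanks the levels were 2.55 and 3.46 against 4.60 and 4.50 (log2 0.54, SE 0.28, adjusted p = 1.00), again without overlap. The side after the gene, at 2.88 and 4.07 against 6.05 and 5.70, was further apart than the side before it, at 2.22 and 2.86 against 3.16 and 3.30.

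Within the Socs3 locus the most covered tile, chr11:117969001-117970000, held 3.67 (uninjured male), 10.9 (uninjured female), 22.8 (1 d.p.i. male) and 32.5 (1 d.p.i. female). Its log2 difference was 2.01 (SE 0.60), and its adjusted p of 0.459 over all tiles did not pass. The tile was picked by its mean over both conditions. In both uninjured libraries it lay below the second tile and the Pgs1 tile given next, so its 1 d.p.i. levels made it the most covered. The most covered base of the tile was 112 bases before the start of the coding transcript (-112), in an intron of the longer noncoding transcript that sets the annotated start of the gene. A second covered tile, chr11:117963001-117964000, lay after the gene and held 8.54, 17.8, 19.4 and 19.4, so there only the uninjured male library stood apart. At the start of the neighbouring gene Pgs1, 16.2 kb from the Socs3 start, the tile had the opposite order, with 11.3 and 13.7 in the uninjured libraries and 6.20 and 3.44 at 1 d.p.i. (log2 -1.33), and it did not pass over all tiles.

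Cebpd, on chromosome 16, encodes C/EBPδ, a transcription factor of acute inflammation and a known STAT3 target. Its flank level was 0.441 in the uninjured male library and 0.609 in the uninjured female library, and 1.44 and 1.47 in the male and female libraries at 1 d.p.i. The uninjured libraries were thus below the library mean and the 1 d.p.i. libraries above it. The mean level was 2.77 times as high at 1 d.p.i., and the log2 difference of 0.94 (SE 0.20) had an adjusted p of 0.0256, with 0.0184% of all genes showing a larger log2 difference. Both sides contributed: the 20 kb before the gene held 0.649 and 0.650 uninjured and 1.41 and 1.79 at 1 d.p.i., and the 20 kb after it 0.233 and 0.568 against 1.46 and 1.16. The side before the gene includes the kilobase shared with the promoter, where its coverage was highest in every library. The flank and promoter values of Cebpd are thus not independent. The side after the gene lies inside Spidr, which runs in the opposite direction and overlaps the end of Cebpd. The counts behind the flank levels were small, with 13, 72, 60 and 57 fragments.

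The call for Cebpd depended on the libraries and on the settings. Its adjusted p was 0.08 without the uninjured male library, 1 without the 1 d.p.i. male library and 1 without the 1 d.p.i. female library, against 0.00436 without the uninjured female library. It was 0.418 with the trimmed mean of log ratios as scaling, 0.311 without a mean-variance trend and 0.051 after thinning to equal numbers of fragments, while the log2 difference stayed above 0 in all 14 alternatives, between 0.45 and 1.33, and the adjusted p ran from 0.00436 to 1. The smallest of these, 0.45, came from a pseudocount of 2, which pulls low levels together.

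At the Cebpd promoter the levels were 4.24 (uninjured male), 6.64 (uninjured female), 9.62 (1 d.p.i. male) and 15.6 (1 d.p.i. female). The conditions did not overlap, and the log2 difference of 1.13 (SE 0.63, adjusted p = 1.00) did not pass. In the gene body the levels were 1.81 and 3.56 uninjured and 6.51 and 8.06 at 1 d.p.i., the largest log2 difference of the 10 genes in that window at 1.34 (SE 0.35, adjusted p = 1.00). The promoter values rested on 5, 35, 24 and 28 fragments. The most covered tile lay at the start of the gene, with 4.65, 11, 11.9 and 22.1, where the uninjured female and the 1 d.p.i. male library were close.

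**Figure D2:**
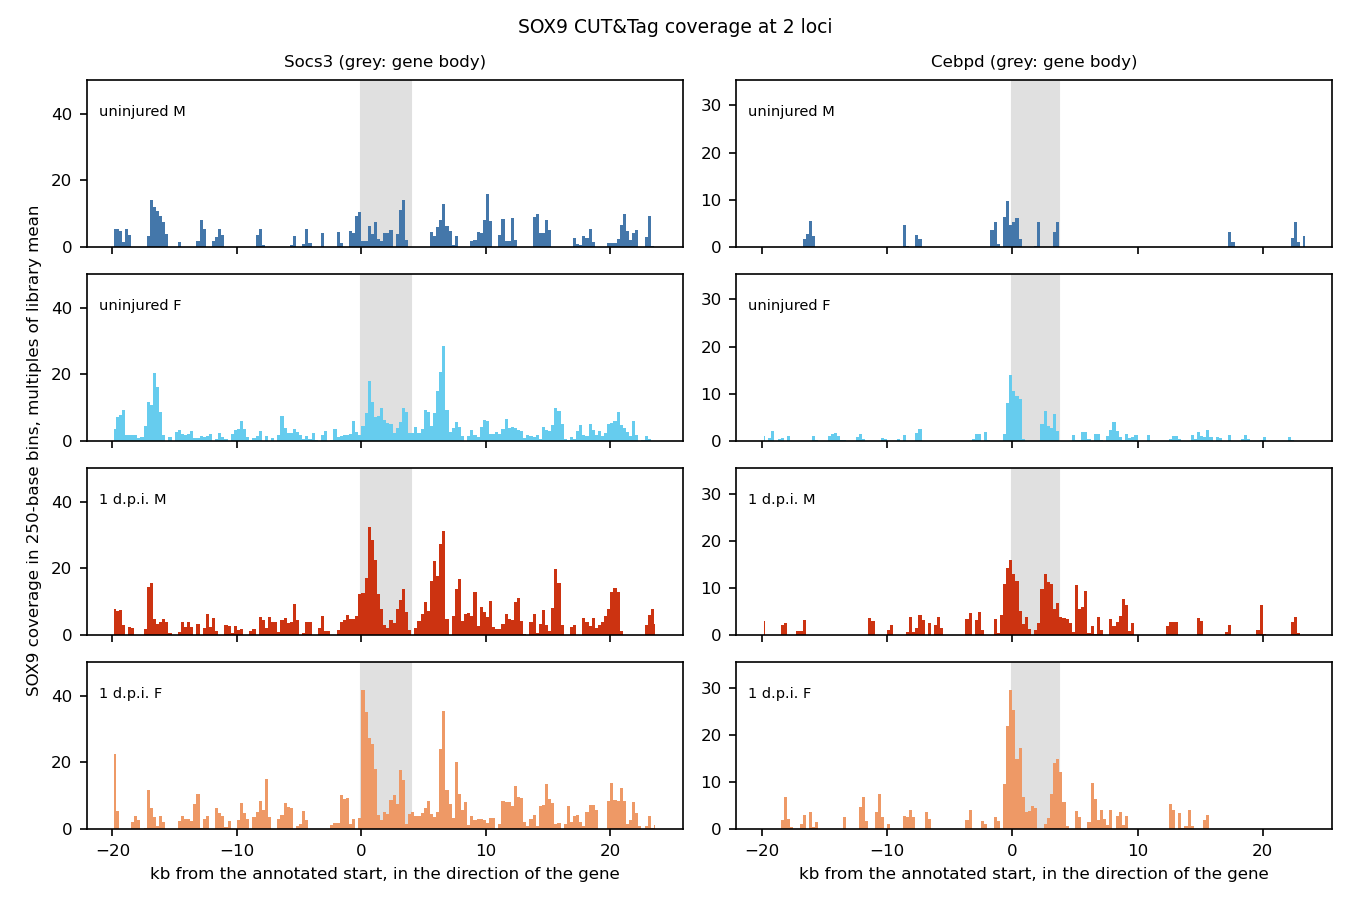
SOX9 coverage across the Socs3 and Cebpd loci in bins of 250 bases, as multiples of the library mean, with 1 row for each library and distance in kb from the annotated start in the direction of the gene; grey marks the gene body. Within 1 kb of the Socs3 start the highest bin, not the same bin in each library, reached 10.4 and 18.1 in the uninjured libraries against 32.5 and 41.8 at 1 d.p.i., and the highest Cebpd bin reached 9.69 and 14.1 in the uninjured libraries against 15.9 and 29.5 at 1 d.p.i.

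Split into 1-kb tiles, the 10 loci (gene and 20 kb to each side) held 109 of the 150653 tiles with a mean level of at least 3. limma called 0 of the 109 higher, where 60 of all tiles (0.0398%) were called higher, and 0 lower, where 10 (0.00664%) were called lower, and at an unadjusted p under 0.05 there were 5 higher (2.2% of all tiles) and 4 lower (1.92% of all) among the 109. The balance of called tiles depended on single libraries: 572 of 618 were higher without the uninjured female library, 25 of 70 without the 1 d.p.i. male library and 0 of 7 without the 1 d.p.i. female library. Without a test, both 1 d.p.i. libraries lay above both uninjured ones in 36 of the 109 tiles (15.4% of all tiles) and below in 12 (16.5% of all). Socs3 supplied 12 of the 36 from 24 tiles tested, Stat3 8 from 21, Il6ra 5 from 8 and Lifr 4 from 16. Jak2 supplied 3 from 14, Cebpd 3 from 3 and Il6st 1 from 3. Of the 12 below, Jak1 and Stat3 supplied 4 each, Lifr 2, and Il6st and Socs3 1 each. Jak1, with 12 tiles tested, thus had tiles below and none above. Neighbouring tiles share fragments, so these counts are not independent.

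The most covered tile was at a start site in 5 loci. It lay over or just beside the start in Il6st, Stat3 and Cebpd and at the start of a coding transcript inside the gene in Lifr and Socs3. In Jak1 and Jak2 it lay in an intron, 30.6 kb and 13.8 kb from the start, and in Osmr it lay 80.0 kb away inside Rictor. Lif and Il6ra had theirs between genes, 34.2 kb and 54.1 kb from the start, and the Il6ra tile, chr3:89859001-89860000, lay nearest to the start of She. The Il6ra tile held 0.516 and 2.72 in the uninjured libraries and 10.1 and 5.51 at 1 d.p.i. (adjusted p = 0.860), without overlap. The most covered tile was picked by its mean over all SOX9 libraries, and this one was below 3 in both uninjured libraries. Its 1 d.p.i. levels thus brought it through the filter on tiles, so its difference between conditions follows in part from how it was picked. The Jak2 tile, chr19:29265001-29266000, had a steady level of 20.9, 17.0, 15.9 and 23.0, and 0.145% of all tiles had a higher mean.

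Sequence motifs were then counted in the RefSeq promoters (250 bases before to 50 after the start), which matched 9 of the 10 genes, all but Cebpd, with 10 promoters because Lifr has 2. The 6 letters ACAATG or ACAAAG of a SOX motif, on either strand, were in 3 of the 10 promoters (Lifr, Socs3 and Stat3) and in 24.9% of 20036 promoters. The STAT motif TTCNNNGAA, where N is any base, was in 1 (Socs3) and in 7.75% of all, the AP-1 motif TGAGTCA or TGACTCA in 1 (Lif) and in 4.65% of all, and the C/EBP motif TTGCNNAA in 0 and in 10.1% of all, each on either strand. In 300 bases around the most covered base of each locus, the SOX motif was in 4 of 9 windows (Lif, Jak2, Stat3 and Socs3) and in 24.9% of 15120 such windows, and the STAT motif in 2 (Il6ra and Socs3) and in 6.26%. The AP-1 motif was in 1 of these windows (Jak1) and in 4.14% of all, and the C/EBP motif in 0 and in 8.93%. Within a window no 2 matches overlapped. The SOX matches of Stat3 and Socs3 are the same sites in their promoters and in the windows around the most covered base. A match describes the letters of a window and says nothing of whether the factor binds there.

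Sequences are shown for the Socs3 promoter, which holds both a SOX and a STAT match inside the tile with the lowest adjusted p of the 10 loci, for the Stat3 promoter, the most covered of the 10, and for the windows around the most covered base of Jak2 and Il6ra, which lie away from any start of their gene. They are from the RefSeq assembly GRCm38.p6 (mm10), written 5′ to 3′ on the strand of the gene. The Socs3 and Stat3 promoters are printed without the 50 bases after the start, so 250 bases of each are shown. Capitals mark the motif matches, a SOX match (ACAAAG, or CTTTGT on the other strand) or a STAT match (TTCNNNGAA). The Socs3 promoter, chr11:117969367-117969616 on the minus strand, has TTCTTAGAA at chr11:117969512-117969520 and a SOX match at chr11:117969385-117969390. The Stat3 promoter, chr11:100939541-100939790 on the minus strand, has its SOX match at chr11:100939693-100939698. The Jak2 window, chr19:29265494-29265793 on the plus strand, has its SOX match at chr19:29265676-29265681, and the Il6ra window, chr3:89858917-89859216 on the minus strand, has TTCACAGAA at chr3:89859073-89859081.
Socs3 promoter: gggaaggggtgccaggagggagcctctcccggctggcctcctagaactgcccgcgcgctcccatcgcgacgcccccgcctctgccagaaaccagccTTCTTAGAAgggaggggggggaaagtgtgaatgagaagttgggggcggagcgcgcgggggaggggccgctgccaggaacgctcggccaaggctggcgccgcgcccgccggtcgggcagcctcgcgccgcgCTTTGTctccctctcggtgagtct
Stat3 promoter: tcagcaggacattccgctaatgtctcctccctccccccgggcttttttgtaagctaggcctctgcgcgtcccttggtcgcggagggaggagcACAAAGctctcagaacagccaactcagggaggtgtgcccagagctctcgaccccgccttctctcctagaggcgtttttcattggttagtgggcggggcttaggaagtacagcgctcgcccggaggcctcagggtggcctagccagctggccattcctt
Jak2 intron window: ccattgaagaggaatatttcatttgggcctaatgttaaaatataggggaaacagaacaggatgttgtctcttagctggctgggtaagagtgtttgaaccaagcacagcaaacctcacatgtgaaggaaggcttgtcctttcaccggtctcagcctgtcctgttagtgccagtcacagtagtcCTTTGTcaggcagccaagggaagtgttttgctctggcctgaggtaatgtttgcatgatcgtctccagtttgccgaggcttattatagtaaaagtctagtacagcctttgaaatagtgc
Il6ra distal window: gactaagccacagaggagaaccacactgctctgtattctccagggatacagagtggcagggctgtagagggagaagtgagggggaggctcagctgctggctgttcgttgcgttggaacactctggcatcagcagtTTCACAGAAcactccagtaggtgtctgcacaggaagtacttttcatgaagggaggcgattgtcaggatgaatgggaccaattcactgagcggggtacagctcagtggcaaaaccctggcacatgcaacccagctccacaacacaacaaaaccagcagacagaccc

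Base composition differed widely among the promoters of the 9 genes. CpG dinucleotides numbered 53 and 4 in the Lifr promoters, 44 in that of Jak2, 33 in Il6st, 31 in Socs3, 29 in Jak1, 25 in Il6ra, 22 in Osmr, 15 in Stat3 and 7 in Lif, against a median of 14 over all promoters. The Jak2 and Il6ra windows away from a start held 3 and 4, against a median of 11 over all windows of that kind.

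The secondary-only controls gave the background at the same loci. The 10 loci held between 0.0541% and 0.0672% of the fragments of the SOX9 libraries, and 0.0661%, 0.0708%, 0.0683% and 0.0367% of those of the uninjured male, uninjured female, 1 d.p.i. male and 1 d.p.i. female controls, from 15, 33, 36 and 4 fragments. The 95% Wilson intervals were 0.0400% to 0.109%, 0.0504% to 0.0994%, 0.0494% to 0.0946% and 0.0143% to 0.0944%, and each contained the shares of all 4 SOX9 libraries. Pooled, the share in the SOX9 libraries was 0.917 times that in the controls (95% counting interval 0.743 to 1.13), so an excess of SOX9 signal over the controls across these loci was not detectable at this depth. At the 10 promoters the controls held 2, 3, 3 and 0 fragments, and the pooled share in the SOX9 libraries was 1.32 times that of the controls (0.658 to 2.64). Intervals cover counting error only. Because control libraries shared fragments with the SOX9 libraries, these comparisons are not between independent sets of fragments. Between SOX9 libraries, the share in the 10 loci was 0.0541% and 0.0583% uninjured and 0.0672% and 0.0661% at 1 d.p.i., while at the 10 promoters it was 0.00465% and 0.00838% uninjured and 0.00971% and 0.00731% at 1 d.p.i., where the conditions overlapped.

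Among 55 other genes of the pathway, 1 was called higher (Bcl3, in the flanks) and 0 lower in the flank fit, and limma called 0 of 54 promoters and 0 of 55 gene bodies in either direction. At an unadjusted p under 0.05 there were 0 promoters (1.17% of all promoters higher and 1.33% lower), 6 gene bodies higher (2.1% of all) and 1 lower (1.72%), and 4 flanks higher (1.48% of all) and 1 lower (0.768%). Bcl3 encodes an atypical inhibitor of NF-κB and is a known STAT3 target. Its flank level was 1.15 and 1.33 in the uninjured libraries and 2.61 and 3.40 at 1 d.p.i., without overlap. The log2 difference was 1.00 (SE 0.22, adjusted p = 0.0320). The adjusted p was 1 without the 1 d.p.i. male library and 1 without the 1 d.p.i. female library, 1 with the trimmed mean of log ratios, 0.152 after thinning, 0.115 without a trend and 0.0617 without the highest tiles in the library mean, and over 14 alternatives it ran from 0.00145 to 1. The log2 difference kept its sign in all 14, between 0.62 and 1.2, and was 1.16 and 0.84 without the 1 d.p.i. male and the 1 d.p.i. female library.

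By role, the 20 other targets of the pathway had both 1 d.p.i. gene body levels above both uninjured ones in 10 genes (13.7% of all gene bodies) and below in 3 (15.4% of all), against 3 above (8.69% of all) and 3 below (14.6%) at promoters and 7 above (12.5%) and 2 below (13.2%) in flanks. Their summed gene body level was 45.2, 60.4, 77.2 and 73.8 in the uninjured male, uninjured female, 1 d.p.i. male and 1 d.p.i. female library. Over all coding genes the sums were 51040, 61541, 55339 and 52321 in the same order. The 9 other ligands had 2 gene bodies above and 4 below, with sums of 26.0, 27.5, 23.5 and 19.9. For the gene bodies of the 15 other inhibitors the counts were 1 above and 1 below, for the 8 other kinases and STATs 1 and 1, and for the 3 other receptor chains 0 and 0. Il6 itself had a promoter level of 0.635 and 1.43 in the uninjured libraries and 0 and 0.481 at 1 d.p.i., so both 1 d.p.i. libraries lay below both uninjured ones at a low level. Of the 55, Cebpb, Gfap and Vim were above in all 3 windows (5.45% against 0.899% of all genes), and they are named after their values were seen. Cebpb encodes the partner of C/EBPδ, and its promoter level was 3.15 and 9.38 uninjured and 15.4 and 9.59 at 1 d.p.i. Gfap and Vim encode intermediate filaments of reactive astrocytes, and their gene bodies held 3.56 and 3.40 against 6.20 and 5.21 for Gfap, and 0.796 and 1.13 against 1.5 and 1.67 for Vim. None of these 3 passed the test in any window. Other targets went the other way, and Timp1 and Lcn2 are examples picked after their values were seen. Timp1 was 1 of the 3 targets with gene bodies below, at 0.690 and 1.92 uninjured against 0.639 and 0.173 at 1 d.p.i. Lcn2 was 1 of the 3 with promoters below, at 7.02 and 6.86 against 6.61 and 5.10.

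Markers of the cell types in the tissue were read in the same way, as SOX9 coverage and not as expression, with 10 genes in each list. Over all coding genes, 8.69% of promoters lay above and 14.6% below at 1 d.p.i. Their promoter levels summed to 97950 (uninjured male), 176350 (uninjured female), 134810 (1 d.p.i. male) and 113154 (1 d.p.i. female). Sums of a list therefore carry this difference between libraries too. The summed promoter level of the astrocyte markers was 45.1, 62.6, 65.9 and 40.4 (uninjured male, uninjured female, 1 d.p.i. male, 1 d.p.i. female), with 1 gene above and 3 below at 1 d.p.i., Glul the most covered, and Aqp4 and Gja1 at 0 in 1 library or more. That of the microglia and macrophage markers was 21.6, 28.1, 33.8 and 22.5, with 5 above, 2 below, Cd68 the most covered and 0 genes at 0. Neutrophil and monocyte markers summed to 11.4, 12.5, 10.9 and 9.05, with 1 above, 3 below, Ngp the most covered, S100a9 at 0 in every library and S100a8, Ly6c2, Ccr2 and Cxcr2 at 0 in at least 1. Oligodendrocyte lineage markers had the highest sums of the 7 cell type lists, 108, 143, 135 and 98.9, with 2 above, 2 below, Cnp the most covered and Pdgfra at 0 in the uninjured male library. Neuron markers summed to 60.4, 83.7, 65.2 and 47.9, with 1 above, 4 below, Tubb3 the most covered and 0 genes at 0. Endothelial and mural markers summed to 8.24, 15.1, 12.2 and 13.3, with 1 above, 2 below and Pdgfrb the most covered, and Acta2, Erg, Pecam1, Rgs5 and Tek were at 0 in at least 1 library. Ependymal markers summed to 39.0, 87.2, 61.3 and 58.9, with 0 above, 3 below, Rfx3 the most covered, and Ccdc39 and Spag17 at 0 in 1 library each. Genes of other organs summed to 21.9, 25.4, 26.2 and 27.7, with 3 above, 0 below, Cryaa the most covered, and Alb, Fgb, Ins2 and Umod at 0 in at least 1 library. The log2 differences of the astrocyte markers were above 0 in 5 of 10 promoters, 9 gene bodies and 8 flanks. Over all genes this held for 9585 of 21238 promoters, 10173 of 21570 gene bodies and 9868 of 21754 flanks. In the same windows the counts were 6, 6 and 3 for microglia and 4, 6 and 5 for neutrophils and monocytes. They were 6, 3 and 4 for oligodendrocytes, 2, 2 and 3 for neurons, and 7, 5 and 5 for endothelial markers. Ependymal markers had 4, 7 and 6, and genes of other organs 7, 4 and 6. Of the astrocyte markers, 3 gene bodies lay above and 0 below, and 2 flanks above and 1 below. Gene bodies above and below (13.7% and 15.4% of all genes) numbered 5 and 1 for microglia, 2 and 1 for neutrophils and monocytes, 2 and 2 for oligodendrocytes, 1 and 3 for neurons, 2 and 0 for endothelial, 1 and 2 for ependymal and 2 and 2 for other-organ genes. In flanks (12.5% and 13.2% of all genes), in the same order, they were 1 and 2, 2 and 1, 2 and 3, 1 and 4, 3 and 0, 3 and 0, and 2 and 1. limma called 0 genes of these lists in any window. At an unadjusted p under 0.05, promoters gave 1 oligodendrocyte marker and 1 gene of other organs higher, and 1 microglia, 1 neutrophil or monocyte and 1 other-organ gene lower, gene bodies gave 1 other-organ gene higher, and flanks gave 1 microglia and 1 endothelial marker higher. The part of a change in cell types in the values of Cebpd, Socs3 and Bcl3 was not tested.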

How the data were processed

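SOX9 CUT&Tag and secondary-only control libraries of mouse spinal cord, 1 male and 1 female sample per condition and antibody, were read from 1 merged file. The coverage values (signal, in whole fragments over each stretch) are as deposited by the authors. Per the submitters' processing notes, reads were demultiplexed with deML, mapped to mm10 with Bowtie2 2.5.4, freed of duplicates with Picard 3.4.0 and used for peak calling with SEACR 1.3. The step that wrote the coverage is not stated, and the peaks were not used here.

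Coverage per base was averaged over promoters (1 kb to each side of the annotated start), gene bodies and flanks (20 kb to each side) of 21755 coding genes (GENCODE M21) and over 1-kb tiles, and divided by each library's autosome mean. Fragments were counted at each rise of the coverage, and in a window those already open at its edge were added. Over all chromosomes of the file, the deepest SOX9 library held 3.81 times the fragments of the shallowest. The test was limma 3.58.1 (R 4.3.3), run on levels after adding 0.5 and taking log2, with a mean-variance trend and Benjamini-Hochberg adjustment over all genes or tiles tested. Windows at 0 in every library and tiles with a mean level under 3 were left out. The code was tested on simulated data. Python 3.11.15 with numpy 2.4.6, pandas 2.3.3, scipy 1.17.1 and matplotlib 3.10.9 did the rest.

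Genes were named in the text if they are members, passed the test, lie beside a member, are the most covered or at 0 in a marker list, or were apart in all 3 windows, and Il6 was named as the ligand that gives the family its name. Timp1 and Lcn2 were named as examples of targets that went the other way, after their values were seen. Serpina3n was named only as a relative of Serpina3m. The members and the lists were chosen with earlier results of these data known. The alternatives were other scalings, thinning to equal numbers of fragments (mean fragment length still differed, 223 bp in the uninjured female library against 256 to 264 bp), other pseudocounts, a filter on low levels, no trend, sex as a block, other promoter widths and starts, and leaving out each library. Leaving out shared fragments was added after the data were seen. Cebpd has no sequence here.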

Additional observations from a re-analysis of the deposited data

Results flagged for a closer look

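For several genes the log2 difference between conditions had opposite signs in the male and the female samples, each computed from 1 library against 1. No test was made of how males and females differ, so this difference was not tested, and the samples are different animals, so sex and animal cannot be told apart. Male minus female, it was 2.47 at the Stat3 promoter (1.36 in males, -1.11 in females), 0.75 in the Stat3 gene body (0.52, -0.23) and 1.02 in its flanks (0.47, -0.55). It was 2.02 at the Jak2 promoter (1.25, -0.77) and 1.17 at the Il6st promoter (0.28, -0.89), with -0.27 in the Il6st flanks (-0.22, 0.05). For Lifr it was -1.99 at the promoter (-0.61, 1.38), -0.12 in the gene body (-0.03, 0.09) and -0.82 in the flanks (-0.19, 0.63). Osmr had -0.75 in the gene body (-0.55, 0.20) and -0.24 in the flanks (-0.18, 0.06), Jak1 0.05 in the gene body (0.03, -0.02) and -0.40 in the flanks (-0.24, 0.16), and Lif -0.45 in the flanks (-0.25, 0.20). Opposite signs were common: they were seen at 4 of 10 promoters, 4 gene bodies and 6 flanks, against 58.1%, 55.9% and 63.6% of all genes.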

How the results depend on the processing

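Of the 151 values of counts and medians under the alternatives, 117 stayed within the spread or within 1.5 times the value given above. No median of the 10 genes turned its sign, while those of all genes did without the uninjured female library (promoters from -0.06 to 0.26, gene bodies from -0.02 to 0.03, flanks from -0.02 to 0.02), and the balance of called tiles did, from 60 of 70 higher to 25 of 70 without the 1 d.p.i. male library and 0 of 7 without the 1 d.p.i. female library. Single log2 differences turned in 12 of 160 promoter values (6 genes), 8 of 140 gene body values (4 genes) and 11 of 140 flank values (6 genes). Socs3 kept its sign throughout, with log2 differences of 1.15 to 1.55 at the promoter, 0.78 to 1.46 in the gene body and 0.35 to 0.73 in the flanks, and so did Cebpd, with 0.80 to 1.47 at the promoter and 0.93 to 1.75 in the gene body.

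The genes called in the flanks numbered 6, and 0 with the trimmed mean, 3 without the highest tiles in the library mean, 2 after thinning, 1 without a trend and 0 to 25 when a library was left out (18 of the 25 higher). Promoter calls went from 0 to 1 with a mean of at least 0.5. The other pathway genes called went from 1 to 0 with the trimmed mean, without the highest tiles, after thinning and without a trend, to 2 with a mean of at least 0.5, and to 0 to 2 without a library. Called tiles went from 70 to 37 with a mean of at least 5, to 29 with the trimmed mean and to 7 to 618 without a library. Of the 618, 1 lay in the 10 loci. The median log2 difference of the 10 genes ran from 0.07 to 0.72 at promoters, 0.11 to 0.19 in gene bodies and 0.04 to 0.23 in flanks without a library, and in gene bodies it was 0.19 after thinning and 0.08 with a pseudocount of 2. Promoters apart and lower went from 1 to 0 after thinning and with 2 kb to each side, gene bodies apart and higher from 6 to 2 with the trimmed mean, and flanks apart and lower from 0 to 1 with it. The cause was not tested. A pseudocount of 2 shrinks low values by construction. Where a library was left out, the lone library of its condition is assumed to vary like the others.

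The male and female letters mark different animals and pair nothing. With sex as a replicate block, calls numbered 0 in promoters, 92 in gene bodies (52 of them higher), 0 in flanks, 0 among the other pathway genes and 29 among tiles, and the adjusted p was 0.127 for the Cebpd flanks and 0.617 for the Bcl3 flanks. The male-minus-female differences of the conditions correlated over genes at -0.102, -0.103 and -0.343 in promoters, gene bodies and flanks.

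Depth limits what can be seen: a promoter such as that of Osmr rested on between 2 and 4 fragments in each library, 2 samples per condition cannot tell animal from injury where they differ, and the control libraries are too shallow to set a background for a single gene.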

Other observations

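The genes other than Cebpd and Bcl3 called in the flanks were Psg16, Sgk1, Serpina3m and Apod, all higher at 1 d.p.i. Sgk1 encodes a kinase induced by glucocorticoids and stress, and its flanks held 1.15 and 0.882 in the uninjured libraries against 3 and 2.22 (log2 1.03, adjusted p = 0.0138). Serpina3m, a relative of the reactive astrocyte gene Serpina3n, held 1.17 and 0.720 against 2.07 and 2.31 (log2 0.91, adjusted p = 0.0476), and Apod, which encodes a lipid carrier made by glia, 1.41 and 2.01 against 3.93 and 4.21 (log2 1.06, adjusted p = 0.0476). Psg16 had the lowest adjusted p of all, 0.000756, with 1.30 and 1.40 against 4.84 and 3.36. These 4 genes are named because they passed the test, and what they share was not tested. Which other genes lie in their flanks was not examined, so a flank level may come from a neighbouring gene.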
